A study of Mus musculus with 16 samples.

Results

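The genes described here are 8 imprinted genes with roles in growth, H19, Meg3, Dlk1, Mest, Peg3, Grb10, Plagl1 and Ndn. They were taken by gene symbol from a table of 19799 genes, and all 8 are in it. Of these, 7 passed the filter on low counts and were tested among 16245 genes, while Dlk1 did not pass it. The 16 RNA-seq libraries came from pmi28, a line of mouse myoblasts that fuse into multinucleated myotubes. The msx2 line carries doxycycline-inducible transgenes for msx2, a homeobox transcription factor, and for GFP. The GFP line carries an inducible GFP transgene only. Each line gave 3 libraries of induced myotubes, 3 of uninduced myotubes and 2 of uninduced myoblasts. Myoblasts were kept in 20% fetal bovine serum, and confluent cultures were moved to 10% horse serum for 3 days to form myotubes. All myotube groups were isolated on a mesh and cultured with AraC, which stops dividing cells, before any treatment. Induced myotubes of both lines then had doxycycline at 2 µg/ml for 24 h in medium with 20% fetal bovine serum. For the uninduced myotubes the medium in that period is not on record in the labels, nor are the transgene promoter and whether a line is a single clone, and myoblasts were not induced. The labels do not describe the libraries of a group as independent cultures, and every p-value rests on their spread alone, which may be technical.

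An imprinted gene is transcribed mainly from the copy inherited from a particular parent, a choice marked by methylation of CpG sites in control regions that many imprinted genes share with their neighbours. H19 is a long noncoding RNA made from the maternal copy next to Igf2, a growth factor gene read from the paternal copy, and both draw on the same enhancers, which are active in fetal and regenerating muscle. Meg3 is a maternally expressed noncoding RNA, and Dlk1, its paternally expressed neighbour, encodes a membrane protein related to Notch ligands. Mest encodes a hydrolase-like enzyme of the endoplasmic reticulum, Peg3 and Plagl1 encode zinc finger transcription factors, and Ndn encodes necdin, a MAGE family protein that binds E2F1. All 4 are read from the paternal copy. Grb10 encodes an adaptor protein that binds the insulin and IGF1 receptors and dampens their signal, and is read from the maternal copy in most tissues. The read counts do not separate the parental copies, so nothing here bears on imprinting itself.

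H19, among the most abundant transcripts of the myotubes, and Mest, which fell most of the 7 genes between myoblasts and myotubes, each host a microRNA, and the mature sequences are shown for that reason. The sequences are from RefSeq on GRCm38.p6, 5′ to 3′, with the seed (bases 2 to 8) in capitals. The miR-675 pair lies within H19 on the minus strand of chromosome 7 (5p chr7:142577112-142577133, 3p chr7:142577078-142577099), and the miR-335 pair within Mest on the plus strand of chromosome 6 (5p chr6:30741314-30741336, 3p chr6:30741354-30741375).
mmu-miR-675-5p: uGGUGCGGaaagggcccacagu
mmu-miR-675-3p: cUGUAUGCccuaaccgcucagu
mmu-miR-335-5p: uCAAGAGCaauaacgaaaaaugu
mmu-miR-335-3p: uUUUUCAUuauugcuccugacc
The 4 seeds differ from each other. The libraries measured polyadenylated RNA per gene, so the level of the mature microRNAs is not known from them.

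Promoter windows of 300 bases, 250 before and 50 after the annotated start, were matched in RefSeq (GRCm38.p6) for 7 of the 8 genes, all but H19. Windows of Mest, which fell most between myoblasts and myotubes, and of Peg3, which rose, are shown with CpG dinucleotides in capitals. Mest has start sites far apart, and the gene counts do not tell which was used. The first window of Mest is chr6:30733256-30733555 and the second chr6:30737800-30738099, both on the plus strand. The window of Peg3 is chr7:6730370-6730669 on the minus strand.
Mest start site 1: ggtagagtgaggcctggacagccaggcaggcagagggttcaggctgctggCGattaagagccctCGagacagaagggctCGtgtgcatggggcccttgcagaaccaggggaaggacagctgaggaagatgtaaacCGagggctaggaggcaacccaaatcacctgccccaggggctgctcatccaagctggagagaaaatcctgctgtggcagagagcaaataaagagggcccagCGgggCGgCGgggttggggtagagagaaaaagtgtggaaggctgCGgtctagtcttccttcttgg
Mest start site 2: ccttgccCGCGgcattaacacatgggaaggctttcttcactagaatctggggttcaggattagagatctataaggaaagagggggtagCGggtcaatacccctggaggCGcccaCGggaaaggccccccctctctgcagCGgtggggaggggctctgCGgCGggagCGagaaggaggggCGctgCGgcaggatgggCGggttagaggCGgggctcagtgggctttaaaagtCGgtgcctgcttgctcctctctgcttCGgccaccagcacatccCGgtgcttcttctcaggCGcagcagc
Peg3: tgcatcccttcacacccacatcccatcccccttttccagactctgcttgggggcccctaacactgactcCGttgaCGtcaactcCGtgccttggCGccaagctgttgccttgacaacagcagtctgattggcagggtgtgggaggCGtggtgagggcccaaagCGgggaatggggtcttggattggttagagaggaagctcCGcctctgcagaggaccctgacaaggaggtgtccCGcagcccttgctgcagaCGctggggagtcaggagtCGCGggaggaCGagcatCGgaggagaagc
These windows hold 8 CpG sites at Mest start site 1, 17 at Mest start site 2 and 13 at Peg3, against a median of 7 over 32851 promoter windows of the same length. The first window of Mest also holds matches to the letters CANNTG, the E-box that MyoD family factors bind, at 135 and 91 bases before the start. The second window of Mest holds a match 232 bases before the start, and the window of Peg3 holds none. Of all windows 72.3% hold such a match. TAATTG, the core letters known for MSX proteins, was in no window of the 7 genes on either strand, and 8% of all windows hold it. A match or its absence is a description of these letters only.

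Total counts per library lay between 19784873 and 33092666. Values are CPM, the count of a gene scaled to a fixed total per library by its TMM-adjusted size, and comparisons are edgeR quasi-likelihood tests on the counts with Benjamini-Hochberg adjusted p over all genes tested. Msx2, the induced gene, averaged 1440.4 CPM in induced against 13.7 CPM in uninduced msx2-line myotubes, and 1.04 CPM in induced against 1.11 CPM in uninduced GFP-line myotubes. It was already above the GFP line without doxycycline, at 13.7 against 1.11 CPM in uninduced myotubes and 16.6 against 1.43 CPM in myoblasts. The markers went with the labelled cell types: the summed level of 10 myotube markers was 10867.5 to 25666 CPM in myotubes and 341.6 to 955 CPM in myoblasts, and that of 7 markers of cycling myoblasts was 25.8 to 80.7 CPM in myotubes and 1254 to 1599.8 CPM in myoblasts. The GFP-line myoblast libraries differed little beyond counting noise, with a chi-square per degree of freedom of 1.949 against 24.82 in msx2-line myoblasts and 10.5 to 31.26 within myotube groups. In bulk RNA such as this, fewer cells of a type and less RNA per cell cannot be told apart.

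H19 was the most or second most abundant gene in each of the 12 myotube libraries, with 0.911 to 1.19% of all counts, and ranked between 4 and 17 in the 4 myoblast libraries, with 0.279 to 0.575%. It had 9004, 8161 and 9247 CPM in induced msx2-line myotubes, 10262, 9822 and 8884 CPM in uninduced msx2-line myotubes, and 6660.0 and 6665 CPM in msx2-line myoblasts. In the GFP line it had 11319, 9482 and 9709 CPM in induced myotubes, 11906, 9849.5 and 9950.4 CPM in uninduced myotubes, and 3074 and 3039.8 CPM in myoblasts. Each of the 4 myotube groups overlapped with its neighbours in the order of their levels, and the myoblast groups lay below all of them, the GFP line lowest. Igf2, which is no member but shares the H19 locus, had 3521, 2892.5 and 4098 CPM in induced msx2-line myotubes, 2468, 2318 and 2704 CPM in uninduced msx2-line myotubes, and 528 and 513 CPM in msx2-line myoblasts. In the GFP line Igf2 had 2470.4, 2070.3 and 2705 CPM in induced myotubes, 2473, 2082 and 2813 CPM in uninduced myotubes, and 214 and 222 CPM in myoblasts. The order of the myoblast groups was thus the same for H19 and Igf2, but Igf2 was highest in induced msx2-line myotubes, where H19 was the lowest of the 4 myotube groups.

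Both genes of the Dlk1 to Meg3 locus were low. Meg3 had 5.2, 6.89 and 5.84 CPM in induced msx2-line myotubes, 4.39, 6.44 and 7.04 CPM in uninduced msx2-line myotubes, and 4.55 and 4.56 CPM in msx2-line myoblasts. The GFP line had 5.72, 4.88 and 7.93 CPM in induced myotubes, 5.36, 4.98 and 8.86 CPM in uninduced myotubes, and 2.85 and 2.69 CPM in myoblasts. The myotube groups overlapped throughout, and the GFP-line myoblasts were lowest. Dlk1 had 48 reads in all 16 libraries together, between 1 and 7 per library: 10 over the induced msx2-line myotubes, 8 over the uninduced msx2-line myotubes, 13 over the msx2-line myoblasts, and 5, 7 and 5 over the same groups of the GFP line. Dlk1 did not pass the low-count filter. In an edgeR fit without that filter it was lower in msx2-line myotubes than in msx2-line myoblasts (log2 change -1.48 ± 0.57, 95% interval -2.68 to -0.27, adjusted p = 0.0267), on 8 reads in myotubes and 13 in myoblasts, and was not called in the other 8 comparisons.

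Mest and Peg3 went opposite ways between cell stages. Mest had 28.3, 29.2 and 28.9 CPM in induced msx2-line myotubes, 25.4, 29.7 and 28.2 CPM in uninduced msx2-line myotubes, and 719 and 725 CPM in msx2-line myoblasts. The GFP line had 26.9, 25.4 and 28.8 CPM in induced myotubes, 27.3, 28.1 and 29.8 CPM in uninduced myotubes, and 466 and 492 CPM in myoblasts. All 12 myotube libraries lay within 25.4 to 29.8 CPM. Peg3 had 569.5, 391 and 507 CPM in induced msx2-line myotubes, 826, 462 and 845 CPM in uninduced msx2-line myotubes, and 367.5 and 384 CPM in msx2-line myoblasts. The GFP line had 818, 576 and 824 CPM in induced myotubes, 804, 559 and 831 CPM in uninduced myotubes, and 365 and 368 CPM in myoblasts. The library numbered 2 was the lowest for Peg3 in each of the 4 myotube groups.

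Grb10, Plagl1 and Ndn were each higher in every myoblast library than in any myotube library. Grb10 had 30.3, 29.8 and 29.4 CPM in induced msx2-line myotubes, 45.6, 35.4 and 34.6 CPM in uninduced msx2-line myotubes, and 186 and 176 CPM in msx2-line myoblasts. The GFP line had 59.2, 43.7 and 48.1 CPM in induced myotubes, 64.8, 46.3 and 52.9 CPM in uninduced myotubes, and 119 and 115 CPM in myoblasts. The msx2 line was thus above the GFP line in myoblasts and below it in myotubes, without overlap at any of the 3 stages. Plagl1 had 22.1, 17.6 and 16.3 CPM in induced msx2-line myotubes, 29.3, 20.8 and 25.5 CPM in uninduced msx2-line myotubes, and 58.7 and 62.9 CPM in msx2-line myoblasts. In the GFP line it had 23.1, 24.2 and 27.9 CPM in induced myotubes, 23.3, 26.9 and 28.7 CPM in uninduced myotubes, and 57.7 and 59.1 CPM in myoblasts. The lines overlapped for Plagl1 in myoblasts and in uninduced myotubes. Ndn had 4.86, 5.28 and 3.84 CPM in induced msx2-line myotubes, 5.79, 5.33 and 5.51 CPM in uninduced msx2-line myotubes, and 28.8 and 26.1 CPM in msx2-line myoblasts. The GFP line had 5.57, 5.38 and 6.13 CPM in induced myotubes, 5.87, 5.24 and 5.8 CPM in uninduced myotubes, and 23.7 and 23.2 CPM in myoblasts.

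**Figure D1:**
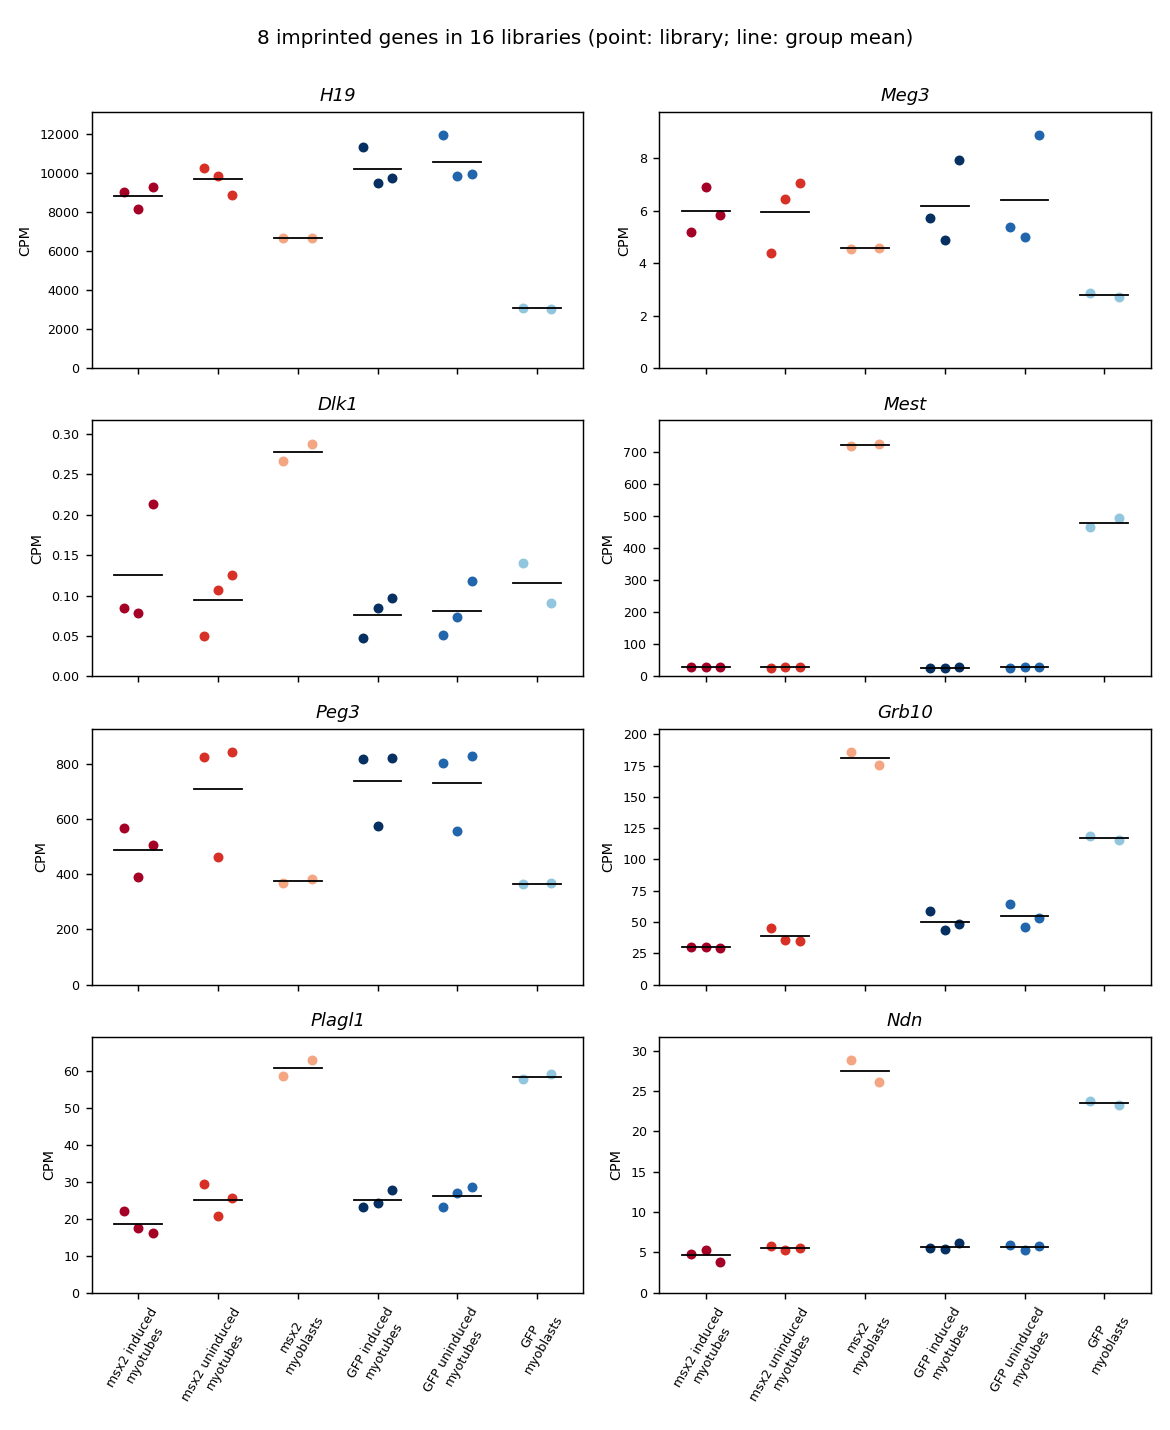
Levels of the 8 imprinted genes in CPM on a linear axis from 0, with a point per library, a line at each group mean, and the groups of the msx2 line left of those of the GFP line. H19 is high in all 12 myotube libraries, Mest lies within 25.4 to 29.8 CPM in all of them against 466 CPM or more in myoblasts, and Peg3 shows a single low library in each myotube group.

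Per kilobase of exon, which allows genes to be set against each other, H19 stood far above the others in every group. Mean levels in uninduced msx2-line myotubes were 3925 CPM per kb for H19, 53.4 for Peg3, 7.04 for Mest, 4.24 for Grb10, 3.22 for Plagl1, 1.5 for Ndn, 0.329 for Meg3 and 0.0166 for Dlk1. In msx2-line myoblasts the order was different, with 2708 CPM per kb for H19, 183 for Mest and 28.2 for Peg3. These values rest on the union of all annotated exons of a gene, which is long for Meg3 (18089 bases) and short for H19 (2460 bases).

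Most of these genes differed between uninduced myotubes and myoblasts in both lines, a comparison called differentiation here. Horse serum, isolation on a mesh and AraC came with the myotube stage. Their effects and that of differentiation itself cannot be told apart in these libraries. Of the 7 genes tested, 2 rose and 4 fell in the msx2 line, and 3 rose and 4 fell in the GFP line. The background was high, since 79.8% of all genes tested were called in the msx2 line (40.8% higher, 39.0% lower) and 77.7% in the GFP line (39.8% higher, 37.9% lower). The median log2 change of the 7 genes was -1.27 in the msx2 line and -1.10 in the GFP line, against 0.08 and 0.06 over all genes tested. With upper-quartile scaling the median of all genes moved by 0.216 in the msx2 line and 0.147 in the GFP line, and no call of a fall or rise among the 7 genes was lost. Markers of other cell types moved with differentiation as well. Fibroblast markers summed to 453 to 1229 CPM in msx2-line myotubes and 3176 to 3224 CPM in msx2-line myoblasts, and to 646 to 677 CPM in GFP-line myotubes and 2195 to 2261 CPM in GFP-line myoblasts, with Tcf21 at 0 in all 4 of these groups and Lum at 0 in the myoblasts. Of 5 fibroblast markers tested, 2 rose and 2 fell in the msx2 line, and 1 rose and 2 fell in the GFP line. Smooth muscle markers summed to 1179 to 1616 CPM in msx2-line myotubes and 4932 to 5292 CPM in msx2-line myoblasts, and to 1114 to 1444 CPM in GFP-line myotubes and 3269 to 3320.1 CPM in GFP-line myoblasts, where 5 of 5 fell in the msx2 line and 4 of 5 in the GFP line. Neural markers summed to 180.3 to 207 CPM in msx2-line myotubes and 445 to 469 CPM in msx2-line myoblasts, and to 179 to 185 CPM in GFP-line myotubes and 395 to 409.8 CPM in GFP-line myoblasts, with Sox10 at 0 in the myoblasts. Of 4 neural markers tested, 2 rose and 2 fell in the msx2 line, and 1 rose and 2 fell in the GFP line. Endothelium markers went the other way in sum, at 34.6 to 41.7 CPM in msx2-line myotubes and 15.3 to 16.5 CPM in msx2-line myoblasts. In the GFP line they summed to 37.4 to 40.7 CPM in myotubes and 15.4 to 17 CPM in myoblasts, and 3 of 5 rose in each line. Of 5 leukocyte markers tested, 3 rose in each line and 1 fell in the GFP line. Of 3 adipocyte markers tested, 1 rose and 1 fell in each line. The part of these cell types in the changes of the imprinted genes was not tested.

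H19 rose to 9656 ± 704 CPM in msx2-line myotubes (SD, n = 3), against 6662 ± 3.45 CPM in msx2-line myoblasts (n = 2), a log2 change of 0.54 ± 0.10 (SE; edgeR, adjusted p = 0.000142). In the GFP line it rose to 10569 ± 1159 CPM in myotubes, against 3057 ± 24.4 CPM in myoblasts, a log2 change of 1.79 ± 0.11 (adjusted p = 3.86e-10). Igf2 rose further than H19 in each line, by 2.26 ± 0.16 in the msx2 line and 3.49 ± 0.17 in the GFP line on the log2 scale. Transcripts of genes for proteins known to bind these 2 RNAs went the other way: all 5 genes of that list fell in both lines, where 39.0% of all genes fell in the msx2 line and 37.9% in the GFP line, with a median log2 change of -1.31 in the msx2 line and -1.12 in the GFP line. Protein was not measured. Among these genes Igf2bp3, which encodes an oncofetal RNA-binding protein, averaged 19.9 CPM in msx2-line myotubes and 69.9 CPM in msx2-line myoblasts. Igf2r, which clears IGF2 from the cell surface and is itself imprinted in mouse, rose to 326 CPM in msx2-line myotubes, against 103 CPM in msx2-line myoblasts, and to 341 CPM in GFP-line myotubes, against 80 CPM in GFP-line myoblasts.

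Meg3 rose in the GFP line, to 6.4 ± 2.14 CPM in myotubes, against 2.77 ± 0.11 CPM in myoblasts (log2 change 1.22 ± 0.29, edgeR adjusted p = 0.00124). In the msx2 line the log2 change was 0.40 ± 0.27, with a 95% interval of -0.17 to 0.97 (adjusted p = 0.178), and it passed with upper-quartile scaling (0.62, adjusted p = 0.047). The difference between the lines did not pass either (-0.82 ± 0.39, adjusted p = 0.214). Rian, a noncoding RNA of the same locus, averaged 5.36 CPM in msx2-line myotubes and 6.68 CPM in msx2-line myoblasts, and did not pass in either line. Exons of Meg3 overlap those of Mir1906-1 on the same strand. How reads in such a shared part were counted is not given in the sources used here.

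Mest had the largest fall of the 7 genes, by 4.70 ± 0.08 on the log2 scale in the msx2 line (edgeR, adjusted p = 8.14e-16), a level in myoblasts 25.9-fold above that in myotubes. In the GFP line it fell by 4.08 ± 0.07 (adjusted p = 1.53e-15), or 16.9-fold. Copg2, which encodes a coat protein subunit and overlaps exons of Mest on the opposite strand, rose, at 66.6 CPM in msx2-line myotubes against 50.8 CPM in msx2-line myoblasts and 63.7 CPM in GFP-line myotubes against 43.9 CPM in GFP-line myoblasts. The call in the msx2 line was lost with the replicate block and GC offset (adjusted p = 0.0753). The strand setting of the counting is not given in the sources used here, so reads in the shared part cannot be assigned with certainty.

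Peg3 rose by 0.92 ± 0.27 on the log2 scale in the msx2 line (edgeR, adjusted p = 0.00658) and by 1.00 ± 0.27 in the GFP line (adjusted p = 0.00425). Its neighbour Zim1, a zinc finger gene, rose more, to 99.3 ± 38.9 CPM in msx2-line myotubes, against 14 ± 2.29 CPM in msx2-line myoblasts, and to 101.1 ± 26.6 CPM in GFP-line myotubes, against 12.6 ± 0.104 CPM in GFP-line myoblasts (log2 changes 2.82 ± 0.39 and 3.00 ± 0.40). Usp29, a ubiquitin protease gene that starts beside Peg3, rose in the msx2 line (0.72 ± 0.29, adjusted p = 0.0387) and had a log2 change of 0.54 ± 0.30 in the GFP line (adjusted p = 0.111). Exons of Usp29 overlap those of Zim3 on the opposite strand, so reads in that part cannot be assigned with certainty either. The call for Usp29 in the msx2 line changed in 7 of 14 alternatives, with adjusted p up to 0.298, among them leaving out either myoblast library or uninduced library 1 or 3.

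Grb10 fell by 2.24 ± 0.14 on the log2 scale in the msx2 line (edgeR, adjusted p = 1.78e-09) and by 1.10 ± 0.14 in the GFP line (adjusted p = 4.43e-06). Ddc, its neighbour, which encodes the decarboxylase of dopamine and serotonin synthesis, fell by 1.81 ± 0.09 in the msx2 line and by 0.77 ± 0.09 in the GFP line. Plagl1 fell by 1.27 ± 0.14 in the msx2 line and by 1.15 ± 0.14 in the GFP line. Ndn fell by 2.31 ± 0.11 in the msx2 line and by 2.06 ± 0.11 in the GFP line. Beside Ndn lies Peg12, an intronless imprinted gene, which averaged 0.814 CPM in msx2-line myotubes and 18.8 CPM in msx2-line myoblasts, and 0.852 CPM in GFP-line myotubes and 17.3 CPM in GFP-line myoblasts. Snrpn of the same region, which encodes a spliceosome protein, fell only slightly, by 0.36 ± 0.09 in the msx2 line (adjusted p = 0.00185, lost with upper-quartile scaling and with the filter of 5 CPM, up to 0.123), and in the GFP line it averaged 57.8 CPM in myotubes and 63.3 CPM in myoblasts (adjusted p = 0.193).

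**Figure D2:**
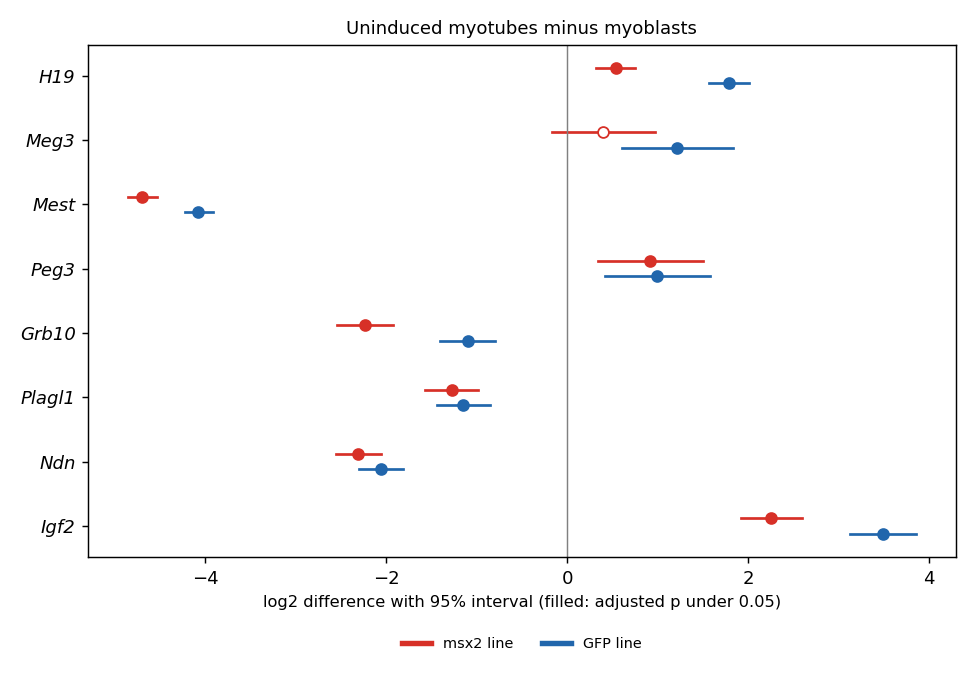
Log2 difference between uninduced myotubes and myoblasts for the 7 tested genes and Igf2, the msx2 line above the GFP line, with 95% intervals and filled points for adjusted p under 0.05. Mest, Grb10, Plagl1 and Ndn lie left of 0 in both lines, and H19, Peg3 and Igf2 right of it. The genes called in the difference between the lines, H19, Grb10, Mest and Igf2, sit further left in the msx2 line.

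The lines differed in how far some genes changed. Of the 7 genes, 3 had a lower log2 change in the msx2 line than in the GFP line (edgeR interaction): H19 by -1.25 ± 0.14 (adjusted p = 8.46e-05), Grb10 by -1.14 ± 0.20 (adjusted p = 0.00326) and Mest by -0.62 ± 0.10 (adjusted p = 0.00146). Over all genes 8.28% were called, 4.27% in this direction. Igf2 differed likewise, by -1.23 ± 0.21 (adjusted p = 0.00226), and so did Ddc, by -1.04 ± 0.13, and Igf2r, by -0.43 ± 0.10. The call for Igf2r was lost without msx2-line myoblast library 2, without either GFP-line myoblast library and with these summed, with adjusted p up to 0.0866. The other 4 tested genes had differences of -0.82 to -0.08 that did not pass. Each difference is also the line difference in uninduced myotubes minus that in myoblasts, so it is no result apart from those 2. In uninduced myotubes the line difference was -0.13 ± 0.09 for H19, -0.03 ± 0.07 for Mest and -0.51 ± 0.13 for Grb10. In myoblasts it was 1.12 ± 0.11 for H19, 0.59 ± 0.08 for Mest and 0.63 ± 0.15 for Grb10.

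Set against each other stage by stage, the lines differed in myoblasts, where 3 of the 7 genes were higher in the msx2 line than in the GFP line, against 16.3% of all genes called and 9.09% called higher. H19 averaged 6662 CPM in msx2-line and 3057 CPM in GFP-line myoblasts (log2 difference 1.12 ± 0.11, edgeR adjusted p = 1.23e-05). Mest averaged 722 and Grb10 181 CPM in msx2-line myoblasts, against 479 and 117 CPM in GFP-line myoblasts (log2 differences 0.59 ± 0.08, adjusted p = 0.000103, and 0.63 ± 0.15, adjusted p = 0.0135). The call for Grb10 was lost without msx2-line myoblast library 1 (adjusted p = 0.116), without either GFP-line myoblast library (adjusted p = 0.0706 and 0.105) and with the GFP-line myoblast libraries summed as 1 (adjusted p = 0.103). Meg3 had a log2 difference of 0.72 ± 0.32 (adjusted p = 0.139) and passed with only the groups compared (0.64, adjusted p = 0.0141). Ndn had one of 0.23 ± 0.12 (adjusted p = 0.211), while Peg3 (0.04) and Plagl1 (0.06) were near 0. Igf2 and Ddc were higher in the msx2 line, by 1.26 ± 0.16 and 0.62 ± 0.10. Myotube markers moved with these genes: 9 of 10 were higher in msx2-line than in GFP-line myoblasts, with a median log2 difference of 1.68 and a summed level of 944 to 955 CPM in msx2-line and 342 to 357 CPM in GFP-line myoblasts. None of the 10 was at 0. None of the 7 markers of cycling myoblasts was called (summed 1254 to 1271.5 CPM in msx2-line and 1588 to 1599.8 CPM in GFP-line myoblasts). Fibroblast markers (3176 to 3224 CPM in msx2-line and 2195 to 2261 CPM in GFP-line myoblasts) and smooth muscle markers (4932 to 5292 CPM in msx2-line and 3269 to 3320.1 CPM in GFP-line myoblasts) were higher in sum in the msx2 line without overlap, though none of the 5 tested of either list was called. Neural markers were also higher in sum without overlap (445 to 469 CPM in msx2-line and 395 to 409.8 CPM in GFP-line myoblasts), with 1 of 4 tested called higher. Adipocyte markers were lower in sum without overlap (4.46 to 5.14 CPM in msx2-line and 7.23 to 7.39 CPM in GFP-line myoblasts), with 1 of 3 tested called lower. No endothelium or leukocyte marker was called. The part of all these markers in the differences of H19, Mest and Grb10 was not tested.

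In uninduced myotubes none of the 7 genes was called between the lines by edgeR, against 0.0616% of all genes, and 1 of them, Grb10, had an unadjusted p under 0.05. Of all 16245 genes tested, 1584 had such an unadjusted p. Grb10 averaged 38.5 ± 6.11 CPM in msx2-line and 54.7 ± 9.37 CPM in GFP-line uninduced myotubes (SD, n = 3 each), a log2 difference of -0.51 ± 0.13 (adjusted p = 0.157). With the replicate number as a block, which pairs these libraries, it passed (-0.51 ± 0.09, adjusted p = 0.0114). The other 6 differences lay between -0.13 and -0.02, with 95% intervals reaching at most from -0.59 to 0.46.

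In induced myotubes 2 of the 7 genes were lower in the msx2 line than in the GFP line, against 35.3% of all genes called and 17.8% called lower. Grb10 averaged 29.8 ± 0.438 CPM in msx2-line and 50.4 ± 7.97 CPM in GFP-line induced myotubes (log2 difference -0.75 ± 0.13, edgeR adjusted p = 0.000399). Plagl1 averaged 18.7 ± 3.02 CPM in msx2-line and 25 ± 2.5 CPM in GFP-line induced myotubes (-0.43 ± 0.13, adjusted p = 0.0186). The call for Plagl1 was lost without msx2-line library 2 or 3 (adjusted p = 0.0664 and 0.0966) or GFP-line library 3 (0.0834). H19 (-0.21 ± 0.09, adjusted p = 0.0794), Peg3 (-0.60 ± 0.23, adjusted p = 0.0646) and Ndn (-0.29 ± 0.12, adjusted p = 0.0647) did not pass. Of 15 alternatives, H19 passed in 3, with log2 differences from -0.39 to -0.12 and adjusted p from 0.000209 to 0.328 over all of them. Peg3 passed in 5, among them without GFP-line library 2 (adjusted p = 0.0352). Ndn passed in 2, among them without msx2-line library 2 (adjusted p = 0.0259). Igf2 was higher in the msx2 line, by 0.54 ± 0.13 (adjusted p = 0.00458). Myotube markers summed to 10867.5 to 13741 CPM in msx2-line and 21962 to 25266 CPM in GFP-line induced myotubes, without overlap, where 5 of 10 were lower and 1 higher in the msx2 line. Of the smooth muscle markers 2 of 5 were higher and 1 lower (summed 566 to 1138 CPM in msx2-line and 1008 to 1331 CPM in GFP-line induced myotubes). Of 5 leukocyte markers tested, 2 were higher and 1 lower, and of 7 cycling myoblast markers 1 was higher and 1 lower. Lower too were 2 of 4 neural and 1 of 5 fibroblast markers tested. The part of these markers in the differences was not tested.

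**Figure D3:**
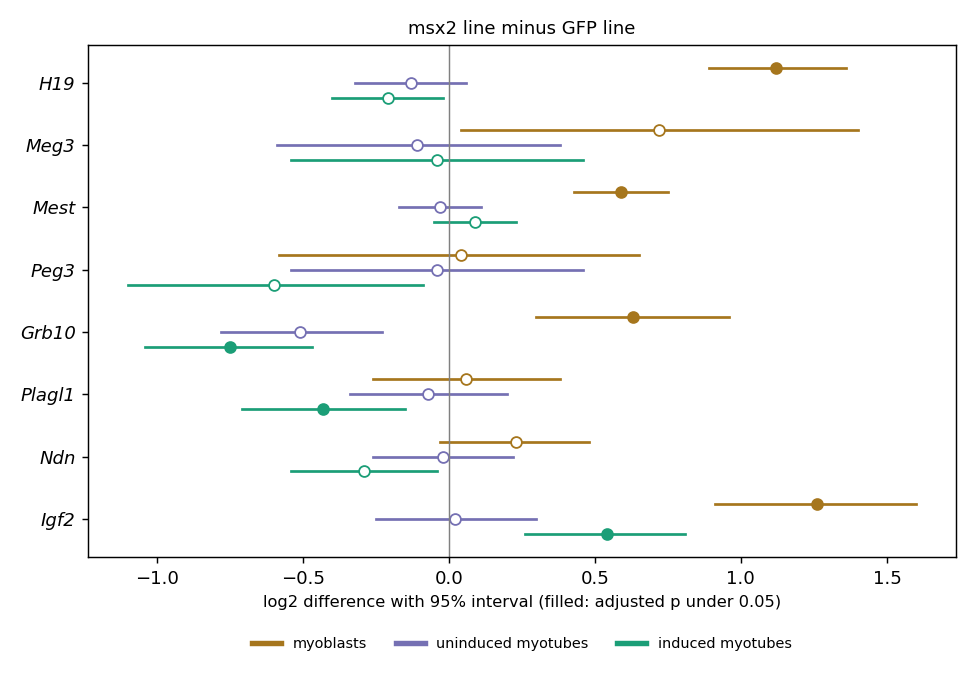
Log2 difference of the msx2 line minus the GFP line in myoblasts, uninduced myotubes and induced myotubes, top to bottom within each gene, with 95% intervals and filled points for adjusted p under 0.05. H19, Mest and Grb10 are right of 0 in myoblasts, and Grb10 is left of 0 in both myotube stages.

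With msx2 induced in myotubes, 2 of the 7 genes fell, Plagl1 and Grb10, and none rose, where 32.5% of all genes were called and 16.3% were called lower. The median log2 change was -0.25 over the 7 genes and -0.01 over all genes tested. Plagl1 averaged 18.7 ± 3.02 CPM in induced and 25.2 ± 4.3 CPM in uninduced msx2-line myotubes (SD, n = 3 each), a log2 change of -0.43 ± 0.13 (edgeR, adjusted p = 0.0179), and the groups overlapped. Grb10 averaged 29.8 ± 0.438 CPM in induced and 38.5 ± 6.11 CPM in uninduced msx2-line myotubes, a change of -0.36 ± 0.13 (adjusted p = 0.0476) without overlap. Both calls rest on few libraries. The call for Plagl1 was lost without uninduced library 1 (adjusted p = 0.0837) or 3 (0.0516) or induced library 2 (0.0615) or 3 (0.0903). It was lost too with the replicate block joined with a GC offset (-0.35, adjusted p = 0.057) and with only the groups compared (0.0784). The call for Grb10 was lost without uninduced library 1 (log2 change -0.23, adjusted p = 0.206) or induced library 1 (0.0988), 2 (0.0962) or 3 (0.114), and no gene of the 7 was called without uninduced library 1 or without induced library 3. Grb10 lost its call too without the low-count filter (-0.36, adjusted p = 0.0563) and with the filter of 5 CPM (-0.35, adjusted p = 0.0503). Without both msx2-line myotube libraries numbered 2, which lay apart from their groups on the first principal component, 3 genes passed, Plagl1, Peg3 and Ndn, and Grb10 did not (-0.42, adjusted p = 0.0909).

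Peg3 averaged 489 ± 90.4 CPM in induced and 711 ± 216 CPM in uninduced msx2-line myotubes, a log2 change of -0.54 ± 0.23 (edgeR, adjusted p = 0.0969). The libraries numbered 2 were the lowest in both groups, and with the number as a block Peg3 fell by 0.51 ± 0.15 (adjusted p = 0.0211). It also passed without uninduced library 2 (-0.77, adjusted p = 0.00864). Usp29 fell with it, to 20.1 CPM in induced myotubes, against 33.1 CPM in uninduced myotubes (-0.72 ± 0.26, adjusted p = 0.0493), and Zim1 had a log2 change of -0.68 ± 0.30 (adjusted p = 0.106) and passed with the block. The call for Usp29 changed in 7 of 15 alternatives (adjusted p up to 0.206), among them leaving out uninduced library 1 or 3 or any induced library. Ndn had a log2 change of -0.25 ± 0.12 (adjusted p = 0.11), and passed without induced library 2 (adjusted p = 0.0406). H19 changed by -0.13 ± 0.09, with a 95% interval of -0.32 to 0.05 (adjusted p = 0.276), and passed only when the block was joined with an offset for GC content (-0.29, adjusted p = 0.00274). Mest (0.05 ± 0.07) and Meg3 (-0.01 ± 0.23) were near 0. Igf2 rose, to 3504 ± 603 CPM in induced myotubes, against 2497 ± 194 CPM in uninduced myotubes, without overlap (0.49 ± 0.13, adjusted p = 0.0091).

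The same medium and doxycycline in the GFP line moved none of these genes past the threshold by edgeR, where 0.0308% of all genes were called. None of the 7 had an unadjusted p under 0.05, their log2 changes lay between -0.12 and 0.02, and their 95% intervals reached at most from -0.57 to 0.52. Of all 16245 genes tested, 164 had such an unadjusted p. Igf2 averaged 2415 CPM in induced and 2456 CPM in uninduced GFP-line myotubes. The difference between the inductions, tested as an interaction, passed for 0 of the 7 genes, where 17.9% of all genes were called. None of the 7 had an unadjusted p under 0.05, and 4752 of all 16245 genes tested did. The difference was -0.36 ± 0.18 for Plagl1 (adjusted p = 0.213), -0.25 ± 0.18 for Grb10 (0.426) and -0.56 ± 0.33 for Peg3 (0.296). The falls of Plagl1 and Grb10 in the msx2 line are thus not shown to differ from the change in the GFP line. For Igf2 the difference was 0.51 ± 0.18 (adjusted p = 0.0688) and passed with the number as a block (0.50 ± 0.09, adjusted p = 0.000821). Myotube markers moved with the msx2 induction: 5 of 10 fell and 1 rose, with a summed level of 10867.5 to 13741 CPM in induced and 20454 to 23056.5 CPM in uninduced msx2-line myotubes. Smooth muscle markers summed to 566 to 1138 CPM in induced and 1179 to 1616 CPM in uninduced msx2-line myotubes, where 1 of 5 rose and 1 fell. Markers of fibroblasts (385 to 1246 and 453 to 1229 CPM) overlapped between these groups, and Tcf21 was at 0 in the uninduced group. Of 5 leukocyte markers tested, 1 rose and 1 fell, and of 7 cycling myoblast markers 1 rose and 1 fell. Of 4 neural markers tested, 1 fell. The part of all these markers in the changes was not tested.

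**Figure D4:**
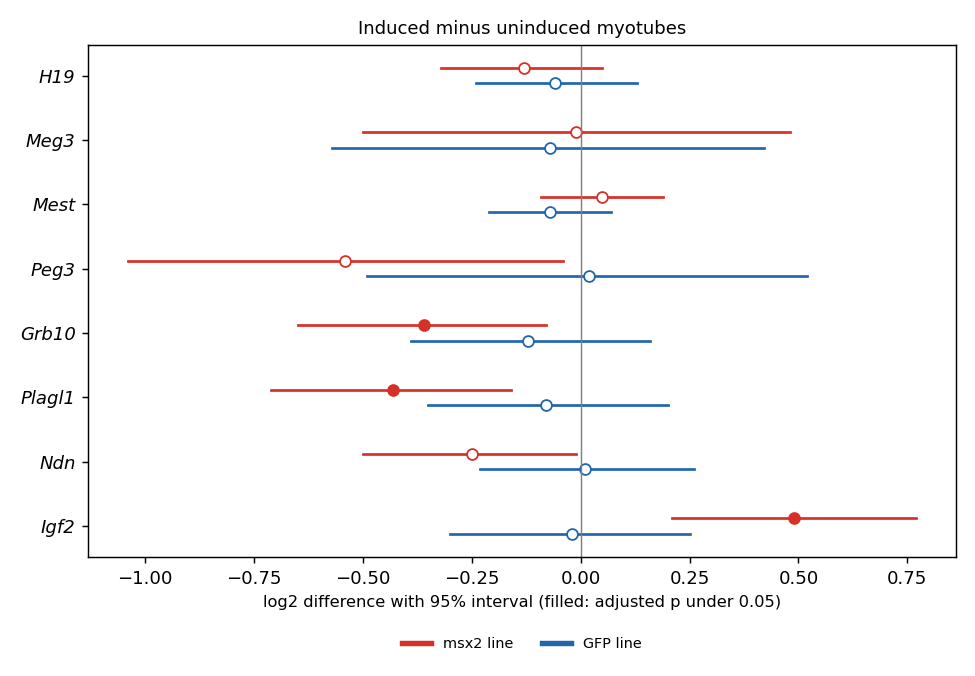
Log2 difference between induced and uninduced myotubes for the 7 tested genes and Igf2, the msx2 line above the GFP line, with 95% intervals and filled points for adjusted p under 0.05. In the msx2 line the intervals of Grb10 and Plagl1 lie left of 0 and that of Igf2 right of it. Those of Peg3 and Ndn lie left of 0 too, with points that are not filled. Every interval of the GFP line includes 0.

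Libraries with the same number in their labels shared part of their variation, as the Peg3 locus and Igf2 show. Peg3, Zim1 and Usp29 were each lowest in the library numbered 2 in all 4 myotube groups, and so was Igf2. Zim1 had 68, 44.1 and 73.4 CPM in induced msx2-line myotubes, 104.3, 58.2 and 135 CPM in uninduced msx2-line myotubes, 96, 77.2 and 119 CPM in induced GFP-line myotubes, and 98.7, 75.8 and 129 CPM in uninduced GFP-line myotubes, in the order of their numbers. Grb10 was highest in the library numbered 1 in all 4 groups. Not every gene had such a pattern. For Plagl1 the library numbered 1 was lowest in 2 groups and highest in 2. For Mest the library numbered 2 was lowest in 1 group and highest in 2, and for Ndn it was lowest in 3 and highest in 1. What the numbers stand for is not given in the labels.

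**Figure D5:**
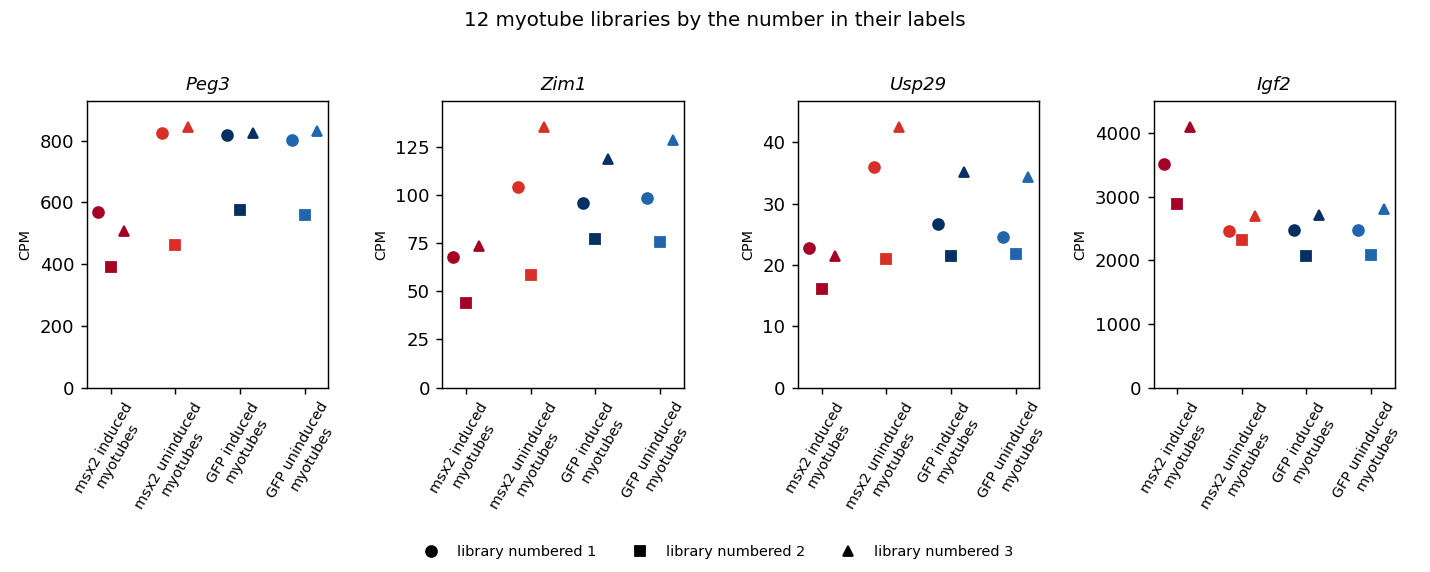
CPM of Peg3, its neighbours Zim1 and Usp29, and Igf2 in the 12 myotube libraries, with a linear axis from 0, induced left of uninduced within each line, and the marker shape giving the number in the label. The square, for libraries numbered 2, is the lowest of its group in all 4 groups for each of the 4 genes.

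Other imprinted genes were counted from a list of 66, of which 56 are in the table and 50 were tested. In differentiation 24 rose and 15 fell in the msx2 line (median log2 change 0.20), and 20 rose and 10 fell in the GFP line (median 0.48), where 79.8% of all genes were called in the msx2 line and 77.7% in the GFP line. Peg10, a retrotransposon-derived gene needed in placenta, came close to Mest in its fall, at 40.4 ± 5.51 CPM in msx2-line myotubes against 890.3 ± 6.69 CPM in msx2-line myoblasts, and 42.7 ± 6.64 CPM in GFP-line myotubes against 779.6 ± 20.6 CPM in GFP-line myoblasts. The amino acid transporter gene Slc38a4 had log2 changes of -2.98 ± 0.17 in the msx2 line and -3.01 ± 0.17 in the GFP line. Ube3a, a ubiquitin ligase gene of the Ndn region, rose by 0.99 ± 0.09 in the msx2 line, and Cd81, a tetraspanin gene, rose by 0.82 ± 0.08 in the GFP line. In the difference of differentiations 1 of the 50 was higher and 5 were lower, where 8.28% of all genes were called. Between the lines in myoblasts 8 were higher in the msx2 line and 3 lower, where 16.3% of all genes were called. The lower ones were Ube3a (-0.45 ± 0.10), Pon3 (-0.48 ± 0.12) and Htr2a (-1.21 ± 0.39). Each of these calls was lost without msx2-line myoblast library 1 and without at least 1 of the GFP-line myoblast libraries, with adjusted p over the alternatives up to 0.432 for Ube3a, 0.168 for Pon3 and 0.2 for Htr2a.

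In msx2 induction 9 of the 50 rose and 8 fell, with a median log2 change of -0.05, where 32.5% of all genes were called, and none passed in GFP induction. The largest rise among those named was that of Cdkn1c, which encodes the cell cycle inhibitor p57 and lies in the imprinted cluster beside H19 and Igf2, by 3.02 ± 0.28 on the log2 scale. Kcnq1, a potassium channel gene of the same cluster, rose by 0.95 ± 0.15 and Osbpl5 by 0.35 ± 0.07. Snrpn fell to 37 ± 1.86 CPM in induced msx2-line myotubes, against 55.3 ± 6.55 CPM in uninduced msx2-line myotubes (-0.58 ± 0.08, edgeR adjusted p = 4.88e-05). Herc3 fell by 1.36 ± 0.22, and Gnas, which encodes a G protein subunit, fell by 0.25 ± 0.07, a call lost with only the groups compared (adjusted p = 0.0763). Ddc rose by 0.40 ± 0.08 while its neighbour Grb10 fell. In induced myotubes of the msx2 line against the GFP line 6 of the 50 were higher and 6 lower, where 35.3% of all genes were called, and H13 was among the lower ones (-0.31 ± 0.06). Of 10 tested genes for keeping imprints, such as DNA methyltransferases, 2 rose and 6 fell in msx2-line differentiation, 3 rose and 6 fell in GFP-line differentiation, and 2 rose in msx2 induction. Over all genes 79.8%, 77.7% and 32.5% were called in these 3 comparisons.

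Genes whose pattern over the 16 libraries came closest to that of each gene were found by the root mean square difference of centred log2 CPM among 9672 genes, as a description. For H19 these were Pnmal2 (0.146), Pdlim4 (0.156), Rtn2 (0.168), Abcb6 (0.169) and Herpud1 (0.199), where the median over all genes was 0.72. Pdlim4 averaged 142 CPM in uninduced msx2-line myotubes, 81.6 CPM in msx2-line myoblasts, 129 CPM in uninduced GFP-line myotubes and 41.5 CPM in GFP-line myoblasts. The nearest to Mest were Racgap1, which encodes a protein of cell division, and Lmnb1, for lamin B1 of the nuclear envelope. The nearest to Peg3 were Phka1, which encodes the muscle subunit of phosphorylase kinase (0.0923), and Abca7. For Grb10 they were Dmrta2 and Kctd15, for Plagl1 they were Nfia and Rad21, for Ndn they were Rbm15b and Gpr125, and for Meg3 they were Slc7a2 and Chid1. Among the 7 genes themselves the closest pairs were Grb10 with Ndn (0.33), Grb10 with Plagl1 (0.353) and H19 with Meg3 (0.36).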

How the data were processed

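The deposited values are raw read counts per gene symbol, whole numbers, from libraries of a stranded mRNA kit per the labels. The submitters' processing notes mention mm9 and the tools SAMtools 0.1.19, edgeR 3.6.8 and TopHat2 2.0.11, without roles. How reads were counted, on which annotation and with which strand setting is not given in the sources used here. The 67 table entries that carry no symbol (0.0601 to 0.0878% of counts) were dropped. Gene lengths and exon overlaps came from GENCODE M21 on another build, so gene coordinates are not printed. It held 18657 of the 19799 symbols, a further 1000 under an older name, and 142 were not found.

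A single edgeR 4.0.16 model (R 4.3.3, limma 3.58.1) with 1 coefficient per group was fitted to all 16 libraries, after filterByExpr with a minimum count of 10 and TMM scaling. Robust quasi-likelihood F-tests were two-sided, with Benjamini-Hochberg adjustment over 16245 genes in each of 9 comparisons and a threshold of 0.05. A standard error is the unshrunken log2 change over the square root of its F statistic. The fit was tested on simulated data.

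The members and lists were chosen with earlier results of these data known. The rule named all 8 members, Igf2, Msx2, up to 3 risers and 3 fallers per comparison among other imprinted genes by adjusted p, and the nearest genes with a mean of at least 10 CPM (5 for H19, 2 for each other member). Domain neighbours and RNA-binding genes named beside these were chosen after their values were seen. Same-numbered libraries deviated together in msx2 induction (correlations 0.207 to 0.508), GFP induction (0.359 to 0.453) and between lines in uninduced myotubes (0.177 to 0.288). That the numbers pair libraries there is read from the data and not from the labels. The main tests did not use these pairs. The replicate block does, and it was an alternative fitted to all 16 libraries. The alternatives tried were scaling by RLE or by upper quartile, testing without the filter or keeping genes with 5 CPM in 3 libraries, the replicate block without and with a GC offset (lowess span 0.3), only the groups compared, DESeq2 1.42.0 and leaving out each library. Summing the GFP-line myoblast libraries and leaving out both msx2-line myotube libraries numbered 2 were chosen after seeing the data.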

Additional observations from a re-analysis of the deposited data

Results flagged for a closer look

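The change from myoblasts to uninduced myotubes differed between the msx2 line and the GFP line for 3 of the imprinted genes and for Igf2, by edgeR's test of the interaction. The difference of log2 changes, msx2 line minus GFP line, was -1.25 for H19, -1.14 for Grb10, -1.23 for Igf2 and -0.62 for Mest. Over all genes 8.28% were called, 4.27% in this direction. H19 and Igf2 rose less and Grb10 and Mest fell further in the msx2 line, and myoblasts of the msx2 line had the higher level of all 4. In uninduced myotubes the line difference was -0.13 for H19, -0.51 for Grb10, 0.02 for Igf2 and -0.03 for Mest, none called in the main fit. The interaction is thus no result apart from the line differences at the 2 stages.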

How the results depend on the processing

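Of 711 values recomputed for 46 log2 changes, 651 kept their direction and their side of the threshold, 21 lost the threshold, 31 gained it and 8 changed sign. For the 7 genes and Igf2, the calls of the 2 differentiations and of their difference held in every alternative run, while msx2-line differentiation gained Meg3 with upper-quartile scaling and Dlk1 without the low-count filter (7 called in each). In msx2 induction 2 of the 7 genes were called, but 1 without a low-count filter, 1 with the filter of 5 CPM, 1 with only the groups compared, 0 to 3 leaving out single libraries, and 3 each with DESeq2 and the block (Peg3 added) and with the block and GC offset (H19 and Peg3 added, Plagl1 lost). Over all genes 5287 of 16245 were called there, but 6217 with the block, 6242 with the block and GC offset and 5261 with DESeq2. It was 5091 of 19799 without the filter, 4838 of 12204 with that of 5 CPM and 3919 of 15812 with only the groups compared. Between lines in induced myotubes 2 were called, but 4 each with the replicate block and with DESeq2. It was 3 each with the block and GC offset and with only the groups compared, and 1 to 3 leaving out single libraries. Over all genes 5740 of 16245 were called there, but 6626 with the block, 6678 with the block and GC offset and 5694 with DESeq2. With only the groups compared 4929 of 15673 were called. Correlations of same-numbered libraries were 0.0912 to 0.247 there, which overlaps the 0.177 to 0.288 between lines in uninduced myotubes. Whether the numbers pair the induced libraries of the 2 lines is thus not settled. In myoblasts the correlation was 0.0401, and in differentiation -0.0103 to 0.00524 in the msx2 line and 0.00945 to 0.0113 in the GFP line. The block added H19 (-0.20, adjusted p = 0.0248) and Peg3 (-0.59, adjusted p = 0.00984) between lines in induced myotubes. Between lines in myoblasts it added Meg3 (0.72, adjusted p = 0.0478). Between lines in uninduced myotubes none was called, but 1, Grb10, with the block, 1 with the block and a GC offset, and 1 with DESeq2. Over all genes 10 of 16245 were called there, but 173 with the block, 278 with the block and GC offset and 154 with DESeq2. In msx2 induction Meg3 was near 0 and turned to 0.01 with the filter of 5 CPM, 0.01 with the block, 0.03 with the block and GC offset, and -0.17 to 0.13 leaving out single libraries, where Mest lay between -0.01 and 0.10. The cause was not tested. At 1 to 7 reads per library, depth limits what can be seen of Dlk1.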
